A study of Homo sapiens with 19 samples.

Results

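The comparison described here set the knockdown of one RBFOX2 isoform class against the knockdown of the other in human embryonic stem cells. It comprised 8 of the 19 libraries of the series: the 4 titled N-long KD and the 4 titled N-short KD, taken by their titles and paired within 4 library sets. All 8 came from HUES66, an established human embryonic stem cell line, and all were treated with doxycycline at 1 ug/ml. Their genotype label is the same in both groups and names an RBFOX2 isoform knockdown, and Cas13d, a guided RNA-cleaving nuclease, is named in the title of the series. The sets were 24 hr replicate 1, 24 hr replicate 2, 48 hr replicate 1 and 96 hr replicate 1, each with 1 library of each knockdown. The labels give neither the guide sequences, nor the promoter behind Cas13d, nor whether a line was 1 clone, nor whether the sets were separate cultures, so the spread between these libraries may be technical. The p-values of edgeR below rest on that spread, estimated in part over all features of a kind. A small p-value therefore does not show that the 4 sets of a feature were alike. Libraries were prepared from total RNA after removal of ribosomal RNA, and the measurement is the number of reads that crossed each splice junction, 9622841 to 14625040 per library. Without a control library in the comparison, a difference cannot be assigned to either knockdown.

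RBFOX2 is an RNA-binding protein that controls alternative splicing. RBFOX proteins bind the RNA letters GCAUG, and as a rule sites downstream of a cassette exon favour its inclusion while sites upstream favour its skipping. The gene has several promoters and first exons, so that its proteins differ in their N-termini, and in embryonic stem cells RBFOX2 is known to regulate the splicing of many transcripts, among them its own and those of other RNA-binding proteins. A cassette exon is one that is either joined to both neighbours or left out, and its inclusion is given below as the percent of inclusion plus skipping reads.

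RBFOX2 itself (ENSG00000100320.22, minus strand, chr22:35738736-36028425 in GRCh38) was lower in N-long KD than in N-short KD. Its junction reads per 1000000 reads, after normalisation (CPM), were 79.2, 77.7, 90.9 and 86.0 in the N-long KD libraries of the 4 sets, in the order given above. In N-short KD they were 116, 124, 124 and 114. The groups did not overlap, and N-long KD held 68.1%, 62.9%, 73.4% and 75.4% of the reads of N-short KD in the same order. The widest 95% interval of these ratios, which covers counting error only, ran from 69.4% to 82.0% at 96 hr. The fitted log2 fold change was -0.51 (SE 0.0416, adjusted p 1.6e-09, edgeR's quasi-likelihood test, lower in 4 of 4 sets). Without the term for library set it was -0.52 with an adjusted p of 0.617, and with a term for time alone -0.52 with an adjusted p of 0.111. Fewer cells with the transcript and less transcript per cell cannot be told apart in these bulk libraries. Its paralogs did not pass: RBFOX3 had 22.0 ± 2.14 CPM in N-long KD and 19.8 ± 2.98 in N-short KD (SD, n = 4; adjusted p 0.801). RBFOX1 had 1.55 ± 0.464 and 1.18 ± 0.464 CPM (SD, n = 4; adjusted p 0.924).

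The largest differences within RBFOX2 were at its 5' end, where 2 annotated introns with enough reads to test end at the same common exon. One starts at a 51-nt exon (chr22:35938847-35938897), which GENCODE lists as coding in some transcripts and as a non-coding first exon in others. The other starts at a first exon that lies further downstream (chr22:35840192-35840407 in one transcript). The spliced letters tell the transcripts apart and are shown for that reason, with the upstream exon's last 15 bases in capitals and the common exon's first 15 in lower case, 5' to 3' on the transcript strand, from GENCODE 29.
RBFOX2 51-nt exon to common exon: GCGCGGGACAGCCAGggtaaccaggagccg
RBFOX2 downstream first exon to common exon: AAAATGGTAACTCAGggtaaccaggagccg

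The junction from the 51-nt exon had 18, 20, 24 and 18 reads in N-long KD and 78, 57, 81 and 58 in N-short KD. Every N-long KD library was thus below every N-short KD library, and the fitted log2 fold change was -1.87 (SE 0.172; edgeR's quasi-likelihood test gave an adjusted p of 9.2e-15). The junction from the downstream first exon had 45, 20, 19 and 35 reads in N-long KD and 6, 10, 19 and 5 in N-short KD. Here N-long KD was higher, by 1.45 (SE 0.273, adjusted p 0.00318), but the 48 hr libraries had equal reads and the groups overlapped. This junction had enough reads to be tested through the N-long KD libraries, so its adjusted p is no independent support for the difference. Its call was lost without either 24 hr replicate 1 library (0.99 without N-long KD, adjusted p 0.689, and 0.99 without N-short KD, adjusted p 0.648) and without either 96 hr library (1.17, adjusted p 0.621 and 0.597). Of the reads of both junctions, the 51-nt exon took 28.6%, 50%, 55.8% and 34.0% in N-long KD and 92.9%, 85.1%, 81.0% and 92.1% in N-short KD. The mean difference was -45.7 points ± 18.6 (SD, n = 4 sets), in the same direction in 4 of 4 sets. An exact sign-flip permutation test over the sets, two-sided, gave p = 0.125, the smallest that 4 sets allow. Reads per library were few, 40 to 100 over both junctions, and the Wilson 95% interval of the N-long KD library with 50% ran from 35.2% to 64.8%.

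**Figure D1:**
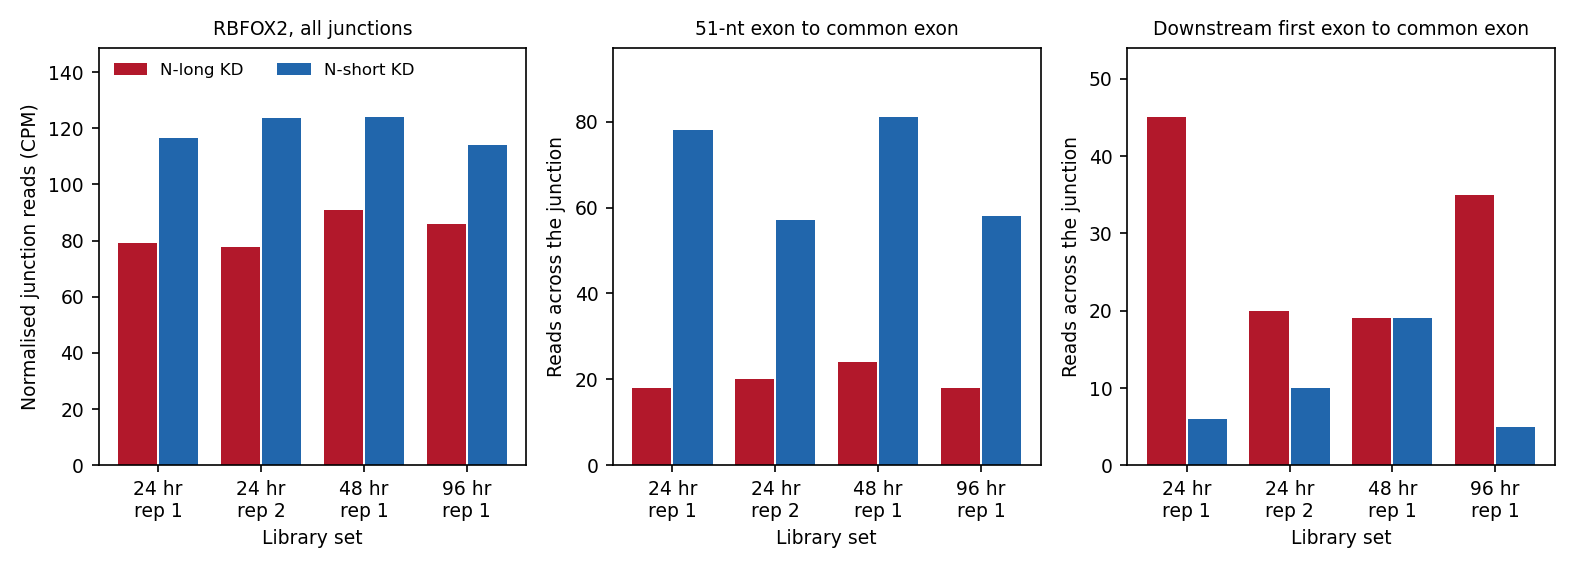
RBFOX2 in each library set (x axis), N-long KD in red and N-short KD in blue, 1 library per bar. The left panel gives normalised reads over all junctions of the gene (CPM), 77.7 to 90.9 in N-long KD and 114 to 124 in N-short KD; the others give reads across the junction from the 51-nt exon (middle) and from the downstream first exon (right) to the common exon, where the bars of the 48 hr set are equal at 19 reads on the right.

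Further along the gene the junctions differed less. Of 24 annotated RBFOX2 junctions with any read, 16 had enough reads to test, and 15 of these were lower in N-long KD. Of 108845 junctions tested in all genes 39 passed (0.0358%), 22 lower (0.0202%) and 17 higher (0.0156%), and 7 of the 16 in RBFOX2 did, 6 lower and 1 higher. The 14 that do not end at the common exon had log2 fold changes of -0.66 to -0.30 with a median of -0.48. Of these 14, the 5 that passed ran from the intron chr22:35778079-35781599 to the intron chr22:35761295-35761414 and changed by -0.66 to -0.48. The largest of them (chr22:35768350-35778024, SE 0.111, adjusted p 2.2e-04) lies next to a 54-nt internal exon and had 77, 59, 90 and 76 reads in N-long KD against 134, 90, 126 and 96 in N-short KD. Upstream of the 51-nt exon, the intron chr22:35938898-36028239 had 19, 16, 25 and 6 reads in N-long KD and 27, 15, 21 and 19 in N-short KD, which overlap (log2 fold change -0.41, SE 0.253, adjusted p 0.983). Without the set term only the junction from the 51-nt exon passed (adjusted p 0.00276), and between 3 and 5 of the 16 passed when 1 library was left out. The 3 introns from chr22:35765484-35768256 to chr22:35761295-35761414 lost their calls in 6, 6 and 8 of the 8 such fits. For a 120-nt exon inside the intron of the downstream first exon (chr22:35836320-35836439), the computed inclusion was 10.4% ± 2.91 in N-long KD and 28.9% ± 15.9 in N-short KD (SD, n = 4), on 8 to 49 reads (adjusted p 0.733). That value does not show the exon spliced to that first exon, as the junction between them had 1 read in all. The junction from the 120-nt exon to the common exon had 8, 4, 4 and 11 reads in N-long KD and 10, 5, 4 and 5 in N-short KD. Near the 3' end, a 40-nt exon (chr22:35756105-35756144) was included at 98.1% ± 0.571 and 93.3% ± 5.95 (SD, n = 4; adjusted p 0.508).

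**Figure D2:**
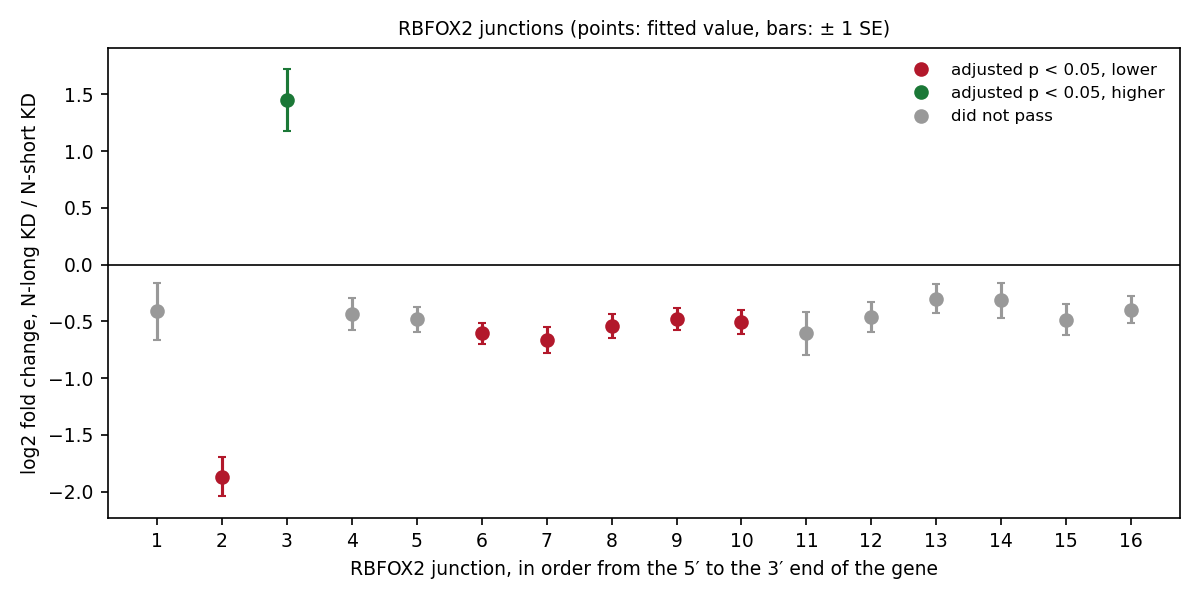
Fitted log2 fold change of each of the 16 tested RBFOX2 junctions, N-long KD over N-short KD (y axis, points with bars of 1 SE), in order along the gene from the 5' end (x axis). Junction 2, from the 51-nt exon, stands at -1.87 and junction 3, from the downstream first exon, at 1.45, while the others lie between -0.66 and -0.30; red and green mark those that passed, grey those that did not.

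Few other genes differed in total junction reads. Of 12808 genes tested 10 passed (0.0781%), 7 higher (0.0547%) and 3 lower (0.0234%) in N-long KD, RBFOX2 included, and 835 had an unadjusted p under 0.05. All 10 had the same direction in 4 of 4 sets, and only RBFOX2 and MORC4 had groups that did not overlap (81 of the 12808 genes tested did not overlap, 0.632%, and 39 of them were lower, 0.304%). MORC4, a member of the MORC family of ATPases with a zinc finger (ENSG00000133131.14, chrX:106813871-107000244), had 11.96, 16.4, 15.9 and 11.7 CPM in N-long KD and 7.98, 11.1, 7.83 and 7.90 in N-short KD. Its lowest N-long KD library stood above its highest N-short KD library, and it was higher by 0.69 (SE 0.109, adjusted p 0.00252). The call was lost without either 48 hr library (0.57, adjusted p 0.357 in both cases) and without the N-long KD library of 24 hr replicate 2 (0.74, adjusted p 0.0538).

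Among the other genes that were lower in N-long KD was PTBP2 (ENSG00000117569.18, chr1:96721665-96823738), the neuronal paralog of the splicing repressor PTBP1. It had 111.1, 108.8, 102.3 and 123.6 CPM in N-long KD and 118.6, 126.6, 131.2 and 141.7 in N-short KD, which overlap, and the fitted log2 fold change was -0.22 (SE 0.0389; adjusted p 0.0169). Its known regulated 34-nt exon (chr1:96806419-96806452) was included at 70.3% ± 5.84 and 77.2% ± 10.8 (SD, n = 4; adjusted p 0.9998). CSMD1, a large transmembrane protein with CUB and sushi domains, had 13.1, 58.1, 213 and 51.8 CPM in N-long KD and 17.0, 70.1, 234 and 68.7 in N-short KD. The sets differed far more than the knockdowns, whose log2 fold change was -0.25 (SE 0.0480, adjusted p 0.0330).

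The 6 further genes that were higher had small differences. The glutamate transporter SLC1A3 was higher by 0.38 (SE 0.0764, adjusted p 0.0416), with 26.2 ± 3.91 CPM in N-long KD and 20.3 ± 3.84 in N-short KD (SD, n = 4). RARRES2, which encodes the secreted protein chemerin, was higher by 0.26 (adjusted p 0.0499). The long non-coding RNA AC104257.1 was higher by 0.33 (adjusted p 0.0499) and varied between sets from 14.4 to 101 CPM in N-long KD. KIF5C, a kinesin heavy chain, was higher by 0.15, the receptor tyrosine kinase ERBB2 by 0.13 and the telomere-binding protein TERF1 by 0.10 (adjusted p 0.0416 each). Apart from RBFOX2, no gene of the 10 passed in every fit that left out 1 library: the call of PTBP2 was lost in 6 of the 8 (-0.17 without either 48 hr library, adjusted p 0.564 and 0.624), that of CSMD1 in 7 (-0.20 without either 96 hr library, adjusted p 0.282 and 0.308) and those of the 6 genes in all 8. No gene passed without the set term (52 with an unadjusted p under 0.05) and only RBFOX2 passed in DESeq2.

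**Figure D3:**
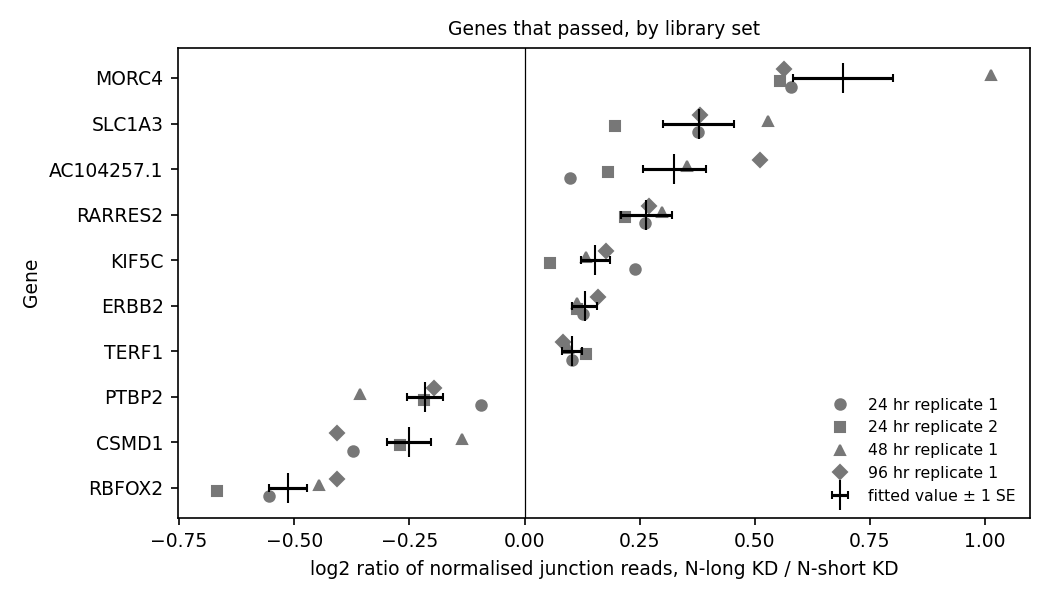
log2 ratio of normalised junction reads, N-long KD over N-short KD (x axis), for the 10 genes that passed (y axis), with 1 grey symbol per library set and the fitted value ± 1 SE in black. All symbols of a gene lie on one side of 0, and MORC4 at 48 hr has the largest ratio (1.01).

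Next in order of p, with the same direction in 4 of 4 sets but past no threshold, came 5 genes with higher values in N-long KD. TTN (titin) had a log2 fold change of 0.13 and an adjusted p of 0.0507, as did PSAT1, a serine synthesis enzyme, with 0.12. PHGDH, the enzyme at the start of the same pathway, had 0.11 (adjusted p 0.0727), the ribosomal protein gene RPL39 0.16 (0.0667) and SYT11, a synaptotagmin, 1.33 (0.0667) at 2.13 ± 0.722 CPM against 0.852 ± 0.262 (SD, n = 4). The 5 with lower values were XKR5 (-1.47, adjusted p 0.0667), the histone methyltransferase KMT2D (-0.11, 0.0748), PDLIM7 (-0.21, 0.114), C15orf41 (-0.33, 0.190) and the neurotrophin receptor NGFR (-0.33, 0.209). XKR5 had 0.404 to 0.910 CPM in N-long KD and 0.997 to 2.98 in N-short KD, which do not overlap, and of these 10 genes SYT11 was the other without overlap. Reads per library were few, 5 to 38 for XKR5 and 8 to 37 for SYT11. Each met the filter on low counts through the group where it was higher, so the lack of overlap is no support for a difference.

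Exon inclusion was compared next. Of 6444 cassette exons tested 29 in 25 genes passed (0.45%), 24 with lower inclusion in N-long KD (0.372%) and 5 with higher (0.0776%), and 329 had an unadjusted p under 0.05. The PIKFYVE exon and the 27-nt MYH10 form reached the 2% of inclusion needed for the test only through N-short KD. The 296-nt FAM126A exon, at 98.4% in N-short KD, met the upper limit of 98% only through N-long KD. Their p-values are thus no independent support for a difference. The exons of GOLIM4, APBB2, DIAPH1, EPB41, ARHGAP17 and MSI1 were lower in N-long KD by 21.7 to 33.5 points, and those of ESYT2 and RAPGEF2 were higher by 18.6 and 18.4 points. Of the 29, 14 exons, all lower and in 12 genes, passed in each of the 8 fits that left out 1 library: those of CLSTN1, EPB41, ENAH, CTTN, MSI1, ARHGAP17, APP, GOLIM4, ECT2 and DIAPH1 and the overlapping pairs of RPS24 and FAM126A. The 2 forms of each pair share a junction and their skipping reads and are not separate results. In 27 of the 29 the direction was the same in 4 of 4 sets, PLAA and PIKFYVE being the exceptions, and in 17 the libraries of the knockdowns did not overlap (132 of all tested exons, 2.05%). No exon passed without the set term (smallest adjusted p 0.0841, GOLIM4; 165 unadjusted p under 0.05) or in limma on log2 ratios (smallest 0.666; 395). The 48 hr N-short KD library had the lowest or highest value of its group in 24 of the 29 exons, the 96 hr N-long KD library in 23, the 48 hr N-long KD library in 20 and the other 5 libraries in 7 to 16. Without the 48 hr N-short KD library 14 exons passed, all lower (15 without the 48 hr N-long KD library, 14 of them lower). With the lower of the 2 inclusion junctions in place of their mean 16 of the 29 passed, and the calls of APBB2, EPB41L1, RAPGEF2, ESYT2, PPP1R12A, EML4, DNM1L, PLAA and PIKFYVE, both TPM1 exons, the 27-nt MYH10 form and the 25-nt RPS24 form were lost.

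The exons that passed were short. Their median length was 63 nt (18 to 411) against 106 nt in all tested exons, 5 of the 29 being 63 nt and 3 being 57 nt long. A length divisible by 3, which keeps the reading frame whether the exon is in or out, was found in 22 of 29 (75.9%) against 46.9%, and 24 of 29 were fully coding against 61.8% of all. Their median GC content was 47.0% against 47.75%. They also had more reads, with a median of 156 per library against 49.9 in all tested exons, and the part of depth in these contrasts was not tested. The overlapping forms of RPS24, FAM126A and MYH10 and the TPM1 pair were counted apart. The letters GCATG were in 1 of the 29 (3.45%), that of GOLIM4, and in 651 of the 6444 tested (10.1%); on the opposite strand (CATGC) the numbers were 1 and 617 (9.57%). Introns were not searched. Of the 29, 8 exons with differences between -33.5 and 18.6 points, chosen after their values were seen, and the TPM1 pair are shown to let their lengths and letters be read, with the cassette exon in capitals and 10 bases of each neighbouring exon in lower case, 5' to 3' on the transcript strand, from GENCODE 29 transcripts (GRCh38).
GOLIM4, 84 nt, minus strand, chr3:168040786-168040869: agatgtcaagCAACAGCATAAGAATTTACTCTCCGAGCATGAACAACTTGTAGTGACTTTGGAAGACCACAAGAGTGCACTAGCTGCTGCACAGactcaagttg
APBB2, 63 nt, minus strand, chr4:40935077-40935139: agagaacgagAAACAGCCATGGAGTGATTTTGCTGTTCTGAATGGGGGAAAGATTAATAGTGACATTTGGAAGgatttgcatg
DIAPH1, 27 nt, minus strand, chr5:141588224-141588250: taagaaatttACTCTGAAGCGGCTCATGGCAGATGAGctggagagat
EPB41, 63 nt, plus strand, chr1:29060422-29060484: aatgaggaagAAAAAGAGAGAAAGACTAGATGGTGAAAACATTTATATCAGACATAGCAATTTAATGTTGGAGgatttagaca
MSI1, 57 nt, minus strand, chr12:120351344-120351400: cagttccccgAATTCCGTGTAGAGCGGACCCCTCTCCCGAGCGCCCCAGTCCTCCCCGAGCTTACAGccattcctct
CLSTN1, 57 nt, minus strand, chr1:9737498-9737554: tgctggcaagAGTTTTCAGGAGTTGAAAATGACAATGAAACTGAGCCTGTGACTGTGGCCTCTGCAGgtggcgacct
ESYT2, 63 nt, minus strand, chr7:158752781-158752843: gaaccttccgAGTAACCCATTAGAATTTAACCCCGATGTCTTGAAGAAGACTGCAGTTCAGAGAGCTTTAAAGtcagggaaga
RAPGEF2, 18 nt, plus strand, chr4:159243774-159243791: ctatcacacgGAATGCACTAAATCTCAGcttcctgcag
TPM1 upstream exon, 76 nt, plus strand, chr15:63061198-63061273: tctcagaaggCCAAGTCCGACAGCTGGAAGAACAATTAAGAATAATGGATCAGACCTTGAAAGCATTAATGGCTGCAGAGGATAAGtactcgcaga
TPM1 downstream exon, 76 nt, plus strand, chr15:63061713-63061788: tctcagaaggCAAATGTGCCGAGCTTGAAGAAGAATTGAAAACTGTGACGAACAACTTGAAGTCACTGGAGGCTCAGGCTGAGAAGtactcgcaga

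GOLIM4, a membrane protein of the Golgi, had the largest difference of all. Its 84-nt exon was included at 44.8%, 48.7%, 55.2% and 27.5% in N-long KD and at 78.95%, 70.9%, 88.35% and 71.9% in N-short KD, on 76 to 120 reads per library. The highest N-long KD library was below the lowest N-short KD library, and the mean difference was -33.5 points ± 9.09 (SD, n = 4 sets; adjusted p 1.1e-14 by edgeR's quasi-likelihood test). A second exon of a membrane trafficking gene was that of CLSTN1, calsyntenin-1, which links cargo vesicles to kinesin. It was included at 13.2%, 6.79%, 4.43% and 6.04% in N-long KD and at 17.1%, 18.3%, 27.7% and 21.6% in N-short KD. The groups did not overlap and differed by -13.6 points ± 8.04 (SD, n = 4 sets; adjusted p 1.2e-08).

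APBB2, an adaptor that binds the cytoplasmic tail of the amyloid precursor protein, had a 63-nt exon included at 30%, 39.1%, 44.2% and 27.6% in N-long KD. In N-short KD the values were 55.6%, 75.0%, 68.75% and 62.5%, all above those of N-long KD. The mean difference was -30.2 points ± 5.99 (adjusted p 0.0125; SD, n = 4 sets). It rested on 20 to 43 reads per library, and the widest half-width of a Wilson 95% interval among the 29 exons was 18.5 points. Its call was lost in each of the 8 fits that left out 1 library, with log2 odds ratios of -1.87 to -1.65 and adjusted p of 0.0839 to 0.130, against -1.75 with all. The amyloid precursor protein gene itself, APP, had a 57-nt exon (chr21:25997360-25997416) at 45.5% ± 5.44 in N-long KD and 53.3% ± 3.803 in N-short KD (SD, n = 4; adjusted p 6.2e-07). It was lower within each of the 4 sets although the groups overlapped across sets.

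Several of the exons lay in genes of the actin and membrane skeleton. DIAPH1, a formin that nucleates actin filaments, had a 27-nt exon included at 58.8%, 62.8%, 49.3% and 46.8% in N-long KD and at 82.5%, 76.3%, 85.5% and 73.4% in N-short KD. No library overlapped, and the difference was -25.0 points ± 9.35 (SD, n = 4 sets; adjusted p 3.2e-07). EPB41, the protein 4.1R that ties spectrin and actin to the membrane, had a 63-nt exon at 59.1%, 53.03%, 35.9% and 39.1% in N-long KD. In N-short KD it was at 80.3%, 71.4%, 62.7% and 69.5%, again without overlap, and the mean of the 4 differences was -24.2 points (SD 5.41; adjusted p 4.7e-06). Its paralog EPB41L1 had a 411-nt exon (chr20:36209488-36209898) at 18.75%, 19.5%, 7.14% and 20.0% in N-long KD and at 38.2%, 32.6%, 30.2% and 34.3% in N-short KD. That difference, -17.5 points ± 4.64 (SD, n = 4 sets; adjusted p 0.0263), lost its call without a library of 24 hr replicate 1 (adjusted p 0.286 and 0.275 without N-long KD and N-short KD), of 48 hr (0.788 and 0.787) or of 96 hr (0.0583 and 0.0580).

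Smaller differences in the same direction were found in other genes of the actin cytoskeleton. The 63-nt exon of ENAH (chr1:225504991-225505053), an actin regulator of the Ena/VASP family, was included at 65.8% ± 3.79 in N-long KD and 76.5% ± 6.27 in N-short KD (SD, n = 4; adjusted p 1.5e-09). CTTN, cortactin, had a 111-nt exon (chr11:70421470-70421580) at 14.85% ± 2.42 and 24.2% ± 2.62 (SD, n = 4; adjusted p 1.5e-05). In MYH10, which encodes the heavy chain of non-muscle myosin IIB, a 30-nt and a 27-nt form of one exon (both ending at chr17:8576643) were at 3.38% ± 0.436 and 1.95% ± 0.247 in N-long KD. In N-short KD they were at 6.82% ± 3.19 and 4.25% ± 1.95 (SD, n = 4; adjusted p 2.5e-04 and 0.00883). These forms share their skipping reads and their downstream junction, and neither passed without a 48 hr library (adjusted p 0.934 or more, log2 odds ratios -0.70 and -0.78 against -1.07 and -1.14). With the lower of the 2 inclusion junctions the 27-nt form did not pass (-2.11, adjusted p 0.0616). That form also met the lower limit of 2% inclusion only through N-short KD, so its adjusted p is no independent support for the difference. Regulators of myosin phosphatase differed as well: PPP1R12A, its targeting subunit (168 nt, chr12:79806166-79806333), was at 54.6% ± 8.01 and 66.4% ± 4.34, and MPRIP (63 nt, chr17:17180607-17180669) at 86.2% ± 4.57 and 93.7% ± 2.26 (SD, n = 4; adjusted p 0.0141 and 0.00319). The call of PPP1R12A was lost without a library of 24 hr replicate 1 (adjusted p 0.186), 48 hr (0.609 and 0.625) or 96 hr (0.169), and that of MPRIP without one of 48 hr (0.0846 and 0.0840) or 96 hr (0.147).

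TPM1 and ACTN1 included the exons that went the other way. TPM1, tropomyosin 1, has a pair of adjacent 76-nt exons of which a transcript carries one. The upstream one was included at 82.6%, 81.6%, 71.7% and 83.8% in N-long KD and at 78.55%, 80.8%, 55.9% and 80.6% in N-short KD, higher in 4 of 4 sets (adjusted p 9.8e-04). The downstream one was at 7.87%, 9.29%, 18.1% and 7.46% in N-long KD and at 10.35%, 11.4%, 27.5% and 8.50% in N-short KD, lower in 4 of 4 sets (adjusted p 0.00431). The junctions of one serve as skipping reads of the other, so the 2 values are not independent, and both calls were lost without either 48 hr library (log2 odds ratios 0.27 and -0.34 against 0.58 and -0.54, adjusted p 1.00). They were also lost with the lower of the 2 inclusion junctions (0.34 and -0.30, adjusted p 1.00). The 81-nt exon of ACTN1 (chr14:68878989-68879069), alpha-actinin 1, was at 98.75%, 97.05%, 94.65% and 99.05% in N-long KD and at 96.7%, 96.2%, 84.7% and 96.5% in N-short KD (adjusted p 7.1e-04). It too was higher in 4 of 4 sets, and its call was lost without either 48 hr library (1.13 against 1.42, adjusted p 0.934 and 0.942).

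Exons of ARHGAP17, ECT2 and RAPGEF2 were among those that passed. ARHGAP17 had a 49-nt exon (chr16:24927684-24927732) at 38.3%, 36.7%, 31.2% and 38.4% in N-long KD and at 57.1%, 58.1%, 60.5% and 64.1% in N-short KD. The groups were far apart and differed by -23.9 points ± 4.65 (SD, n = 4 sets; adjusted p 1.2e-05). ECT2, which acts in cell division, had a 93-nt exon (chr3:172755483-172755575) at 75.4% ± 9.61 and 86.4% ± 5.86 (SD, n = 4; adjusted p 5.4e-06). RAPGEF2, an activator of Rap GTPases, had an 18-nt exon with higher inclusion in N-long KD: 73.2%, 70.2%, 64.0% and 73.6% against 59.0%, 61.8%, 27.3% and 59.3%. This gave 18.4 points ± 12.5 (adjusted p 0.00811; SD, n = 4 sets), which kept its sign in 4 of 4 sets but not its call without either 48 hr library (log2 odds ratio 0.81 against 1.24, adjusted p 1.00).

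ESYT2, an extended synaptotagmin that tethers the endoplasmic reticulum to the plasma membrane, had a 63-nt exon with higher inclusion in N-long KD. It was at 72.5%, 82.2%, 80.6% and 91.5% in N-long KD and at 70.3%, 58.8%, 58.7% and 64.4% in N-short KD, with no overlap, and 18.6 points apart ± 11.2 (adjusted p 0.0288; SD, n = 4 sets). The call was lost without a library of 24 hr replicate 2 (adjusted p 0.249 and 0.255), 48 hr (0.450 and 0.432) or 96 hr (0.421 and 0.424). MSI1, the RNA-binding protein Musashi-1, had a 57-nt exon at 69.2%, 62.1%, 48.1% and 64.5% in N-long KD and at 85.2%, 87.9%, 71.25% and 86.3% in N-short KD. Both 48 hr libraries were the lowest of their group, and the difference was -21.7 points ± 4.14 (SD, n = 4 sets; adjusted p 6.7e-06).

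The remaining exons lay in genes of lipid and organelle biology, the microtubules and the ribosome. FAM126A, hyccin, a partner of a phosphatidylinositol kinase, had a 296-nt exon and a 215-nt form of it (minus strand, both starting at chr7:22947247) at 90.9% ± 2.78 and 88.4% ± 4.03 in N-long KD. In N-short KD they were at 98.4% ± 0.807 and 97.8% ± 1.12 (SD, n = 4; adjusted p 7.0e-07 and 2.3e-06). DNM1L, the GTPase of mitochondrial fission, had a 78-nt exon (chr12:32737865-32737942) at 23.4% ± 1.38 and 36.2% ± 5.35, and EML4, a microtubule-binding protein, a 174-nt exon (chr2:42261121-42261294) at 51.1% ± 16.5 and 62.3% ± 14.3 (SD, n = 4; adjusted p 0.0210 and 0.00538). Each lost its call without a library of 24 hr replicate 2 (adjusted p 0.0525 and 0.0515), 48 hr (0.934 or more, and 0.139 or more) or 96 hr (0.175 or more, and 0.0931). RPS24, a ribosomal protein gene, had a 22-nt and a 25-nt form of one exon (both ending at chr10:78040225) at 33.5% ± 8.40 and 20.0% ± 5.87 in N-long KD. They were at 38.1% ± 8.63 and 23.4% ± 6.76 in N-short KD (SD, n = 4; adjusted p 8.3e-08 and 2.3e-06), on up to 7516 reads per library. With the lower of the 2 inclusion junctions in place of their mean, the 25-nt form did not pass (log2 odds ratio -1.83 against -0.30, adjusted p 1.00). The forms share a junction, whose reads count for both. In every library the inclusion reads of the 25-nt form followed those of the 22-nt form, as with 1232 and 2499 in N-long KD at 24 hr replicate 1 and 1608 and 3302 in N-short KD at 48 hr. The 25-nt values are therefore not a separate result, and 20.0% and 23.4% need not be the use of that form.

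PLAA and PIKFYVE were the exons without a common direction in all sets. PLAA, which encodes a ubiquitin-binding protein, had a 69-nt exon (chr9:26917097-26917165) at 73.7%, 82.4%, 67.7% and 83.5% in N-long KD and at 74.1%, 67.05%, 48.6% and 65.1% in N-short KD, higher in 3 of 4 sets (adjusted p 0.0149). Its call was lost without a library of 24 hr replicate 2 (adjusted p 0.103), 48 hr (0.424 and 0.432) or 96 hr (0.403). PIKFYVE, a kinase that makes phosphatidylinositol bisphosphate on endosomes, had a 36-nt exon (chr2:208274018-208274053) with 0 inclusion reads in all N-long KD libraries and 6, 0, 2 and 3 in N-short KD. Over all libraries its inclusion was 2.21%, which met the lower limit of 2% only through the reads of N-short KD. Its adjusted p is therefore no independent support for the difference. A count of 0 among the 50 to 76 reads of the 5 libraries at 0 allows a share of up to 3.95% to 6%, so that the largest N-short KD value, 11.3%, is above it and the 48 hr value, 2.60%, is not. The adjusted p of 0.0165 became 0.520 or more without a library of 24 hr replicate 1, 0.0676 or more without one of 48 hr and 0.175 or more without one of 96 hr.

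**Figure D4:**
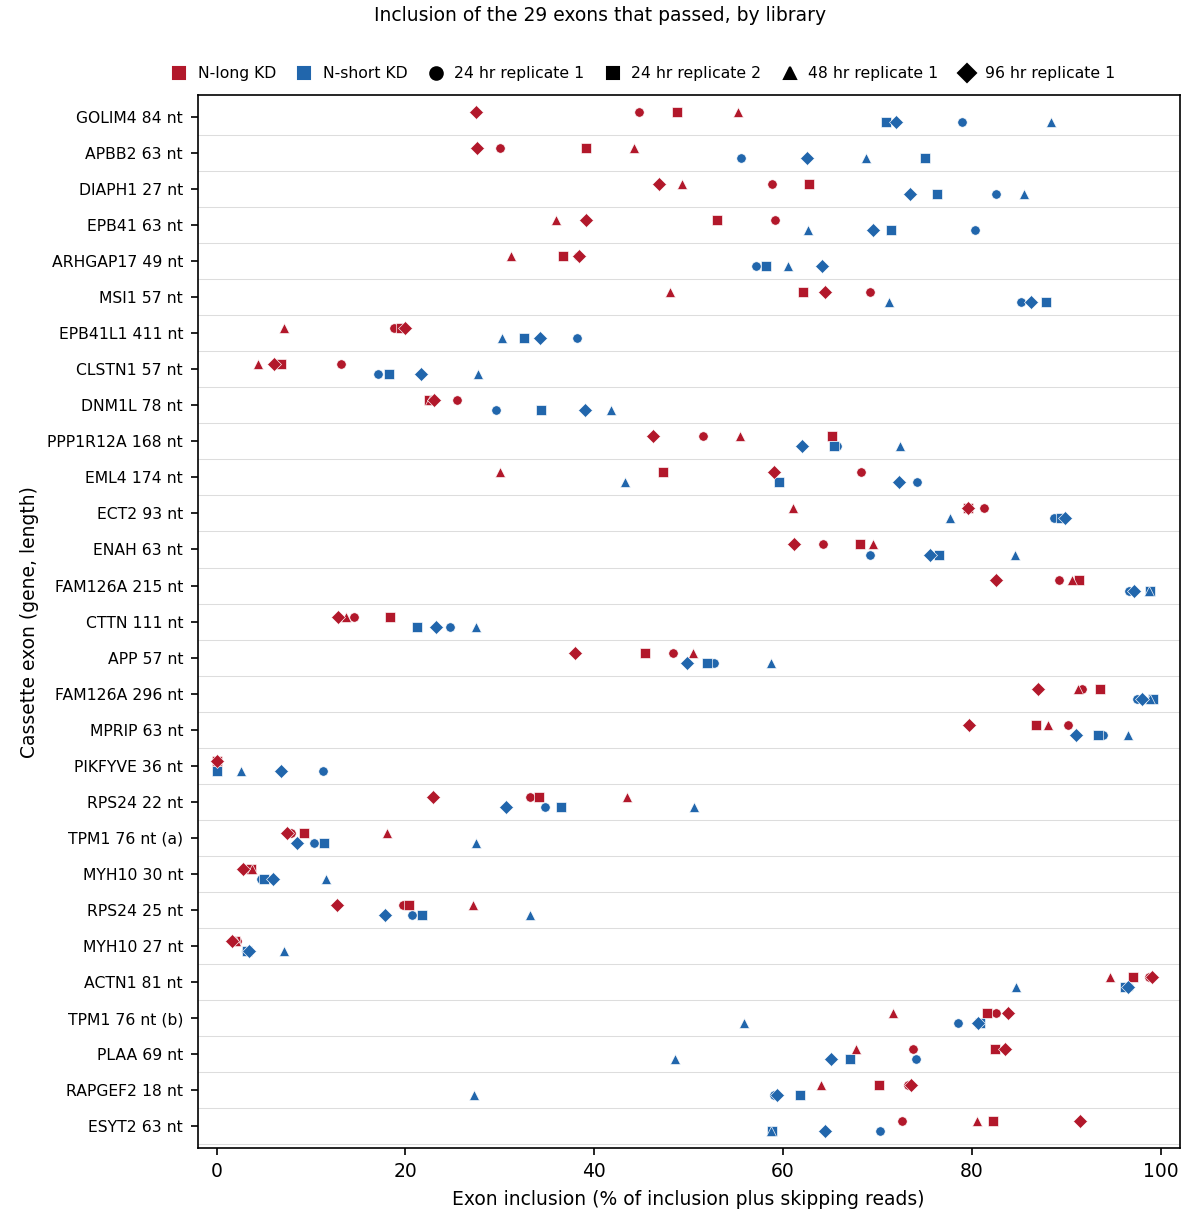
Inclusion (x axis, percent of inclusion plus skipping reads) of the 29 exons that passed, each a line named by gene and length, in order of the mean difference; each symbol is 1 library, red for N-long KD and blue for N-short KD, with the symbol shape giving the library set, and TPM1 (a) and (b) are the downstream and the upstream exon. The GOLIM4 exon at the top spans 27.5% to 55.2% in N-long KD and 70.9% to 88.35% in N-short KD, and the 48 hr N-short KD triangle stands apart for RAPGEF2 (27.3%), TPM1 and ACTN1.

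No gene with such an exon passed the test of total reads. All 25 genes could be tested, 0 passed in edgeR's quasi-likelihood test and 1 had an unadjusted p under 0.05, and DESeq2 called none but RBFOX2 over all genes. In edgeR 0.0781% of the 12808 genes tested passed and 835 had an unadjusted p under 0.05. The counts of 0 and 1 among 25 are thus near the shares of all genes and say nothing particular about these genes. Their log2 fold changes were between -0.065 and 0.043, with a median of -0.00055 against 0.0018 over all genes tested.

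In 27 of the 29 exons the mean difference was larger in size over the 48 hr and 96 hr sets than over the 24 hr sets, as it was in 3159 of the 6444 tested (49.0%). The 29 were picked by a test on these same differences, and 6 of them lost their calls only without a 48 hr library. Larger late differences can thus come from the selection, and the share over all tested exons is not a like comparison. The median size over the 29 was 13.5 points against 7.43, and over all tested exons 2.13 against 2.22. With the 48 hr set alone or the 96 hr set alone in place of their mean the number was 27 of 29 each, against 57.01% and 59.9% of all tested. The largest difference of the 4 sets was at 48 hr in 17 of the 29, at 96 hr in 9 and in a 24 hr set in 3. In GOLIM4 it was -28.2 points at 24 hr and -38.8 later, in DIAPH1 -18.6 and -31.4, in CLSTN1 -7.72 and -19.4, and in RAPGEF2 11.3 and 25.5. In APBB2 (-30.7 and -29.7) and PIKFYVE it was not larger. The difference by time was tested for each exon as a term of its own. Of all 6444 exons 3 passed (0.0466%), 243 had an unadjusted p under 0.05, and of the 29 exons 2 passed and 6 had an unadjusted p under 0.05. Both were the overlapping RPS24 forms, which share reads and are not separate results. The 22-nt form had differences of -1.55 and -2.38 points in the 24 hr sets and -7.04 and -7.72 in the 48 hr and 96 hr sets (adjusted p 5.0e-07). Its call was lost without any of the 24 hr libraries (log2 odds ratio -0.33 to -0.38 against -0.36, adjusted p 0.513 to 0.976), and that of the 25-nt form also without a 96 hr library (adjusted p 0.117 and 0.123). Time and library series cannot be told apart, since both later sets carry one series name in the labels and the 24 hr sets carry others.

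The third exon of that test was a 97-nt exon of AP2M1 (chr3:184180645-184180741), a subunit of the clathrin adaptor AP-2. It had 313 inclusion reads in the N-long KD library of 24 hr replicate 2, 296 in the N-short KD library of 48 hr and 0 in the other 6, where 11 to 33 skipping reads allow a share of up to 9.09% to 27.3%. Its fitted value rests on those 2 libraries, and leaving out either of them or the other library of the same set ended the call (adjusted p 1.00).

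**Figure D5:**
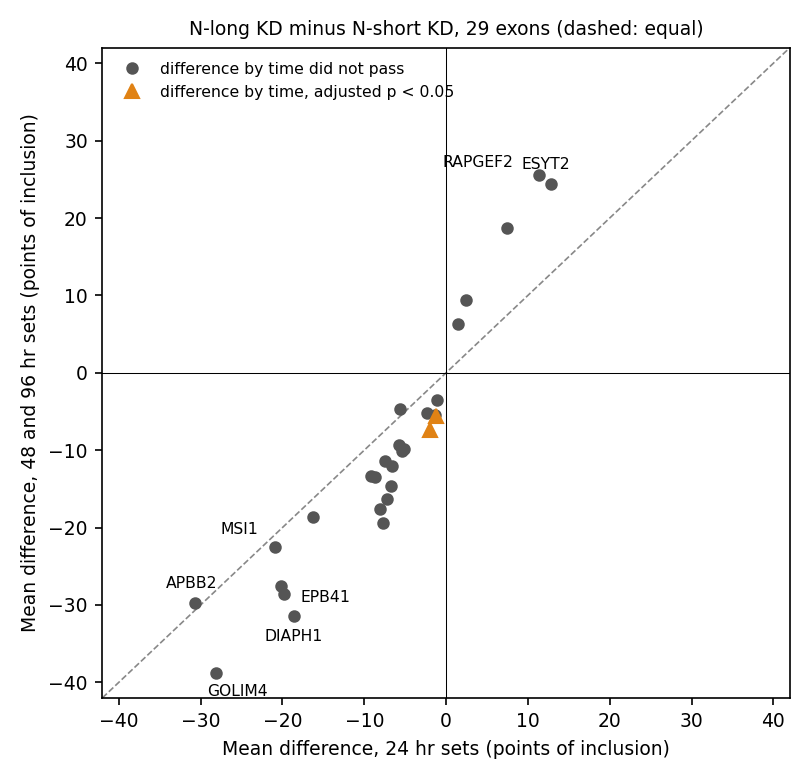
Mean difference in inclusion, N-long KD minus N-short KD, of the 29 exons over the 24 hr sets (x axis) and over the 48 and 96 hr sets (y axis), in points; the dashed line marks equal values. Most points lie further from 0 on the y axis than on the x axis, GOLIM4 at -28.2 and -38.8 among them, and the triangles are the RPS24 forms, which passed the test of the difference by time.

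Alternative splice sites were compared where 2 or more junctions shared a donor or an acceptor and no cassette exon was annotated. Of 4881 junctions tested 4 passed (0.082%), all with a lower share in N-long KD, and 176 had an unadjusted p under 0.05. DST, the cytoskeletal linker dystonin, gave 2 of them, at both ends of one long junction (chr6:56600222-56610426) that leaves out the exons between. At the shared donor, the junction into the next exon (chr6:56609345-56610426) took 65.8%, 55.1%, 58.8% and 55.6% of the reads in N-long KD and 79.5%, 79.6%, 90.4% and 76.2% in N-short KD. The groups did not overlap (difference -22.6 points ± 7.49, SD, n = 4 sets; adjusted p 3.3e-10). At the shared acceptor (chr6:56600222-56601442) the shares were 35.5% ± 7.22 and 64.65% ± 10.8 (SD, n = 4), and this call was lost without either 48 hr library (adjusted p 0.0550). The long junction itself had 40, 53, 68 and 60 reads in N-long KD and 24, 22, 17 and 25 in N-short KD.

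PFN2, profilin 2, which binds actin monomers, differed at alternative acceptors of 1 donor (chr3:149966587-149968357 against chr3:149966265-149968357). The shorter intron took 27.0%, 24.4%, 20.4% and 30.2% of the reads in N-long KD and 33.3%, 32.95%, 28.55% and 37.7% in N-short KD. It differed by -6.26 to -8.51 points within each set although the groups overlapped (adjusted p 0.00934), and the call was lost without a library of 24 hr replicate 2 (adjusted p 0.181 and 0.182), of 48 hr (0.471 and 0.513) or when N-short KD at 96 hr was left out (0.0506). The fourth, in the ribosomal protein gene RPL37 (chr5:40834607-40835018), had 214 and 60 reads in the 24 hr N-short KD libraries, 130 in the 96 hr N-long KD library and 0 in the other 5, where 0 of 1011 to 2300 reads allows up to 0.130% to 0.297%. Its direction therefore differed between sets, and its log2 odds ratio turned from -1.27 to 0.84 without either library of 24 hr replicate 1.

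Gene groups were counted from lists of genes known for a role, set beside the share over all exons or genes tested. The lists were chosen with earlier results of these data known, so a share above that of all exons is no test of a group. Over all exons tested 0.45% passed and 0.372% were lower. Of 65 exons in 22 genes known for RBFOX-responsive splicing 7 passed (10.8%), all lower in N-long KD: those of GOLIM4, ENAH, CLSTN1, EPB41 and ECT2 and both MYH10 forms. Of these 5 passed without either 48 hr library, the MYH10 forms, which share their skipping reads and a junction, being lost. Without the set term 0 passed (8 unadjusted p under 0.05), and in limma 0 (10). The median difference over the 65 was 0.050 points against -0.069 over all exons, and 11 had an unadjusted p under 0.05. The closest to the threshold were a 24-nt exon of PICALM, a clathrin assembly protein (-9.35 points ± 3.82, SD, n = 4 sets; adjusted p 0.0773), and a 21-nt exon of the kinesin KIF21A (-14.01 points ± 4.42; adjusted p 0.329). Of 102 exons in 41 genes of the actin, microtubule and membrane skeleton 10 passed (9.8%), 8 lower (ENAH, DIAPH1, EPB41, EPB41L1, CTTN, both MYH10 forms and the TPM1 downstream exon) and 2 higher (ACTN1 and the TPM1 upstream exon), with a median of -0.64 points. Between 4 and 10 of these passed when 1 library was left out, the 4 without the 48 hr libraries. In endomembrane traffic and polarity 3 of 63 exons passed (4.76%), all lower, those of GOLIM4, CLSTN1 and DNM1L. The lists overlap, as GOLIM4, ENAH, CLSTN1, EPB41 and MYH10 each stand in more than one.

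Other RNA-binding proteins were counted in the same way. Of 48 splicing regulators tested as genes PTBP2 alone passed (2.08%, against 0.0781% of all genes). Of their 66 cassette exons 0 passed, against 0.45% of all exons, a share at which 0 of 66 says little. The 1 exon with an unadjusted p under 0.05 was a 36-nt exon of the SR protein SRSF7 (81.6% ± 0.848 in N-long KD and 84.6% ± 1.28 in N-short KD, SD, n = 4, adjusted p 0.204 in edgeR). In the p53 target list (19 genes), the interferon response (9) and the ATF4 and amino acid response (18), 0 genes passed, with 0, 0 and 4 at an unadjusted p under 0.05. Over all genes 0.0781% passed, so 0 in lists of this size says little about them, and 835 of 12808 had an unadjusted p under 0.05. The members with the smallest p were FAS (log2 fold change 0.37, adjusted p 0.862), DDX58 (0.14, adjusted p 0.857) and PSAT1, given above.

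Pluripotent stem cell markers were present in all libraries. Of 16 listed, 14 reached 10 CPM, POU5F1 at 920 to 1290 CPM and NANOG at 28.7 to 37.3, and SOX2, whose gene has no intron, gave no junction reads. TERF1, given above, was the member that passed of the 14 tested (7.14%, against 0.0781% of all genes). Of the 14, 6 had an unadjusted p under 0.05, against 835 of 12808 over all genes. Their median log2 fold change was 0.039, against 0.0018 over all genes. What lies behind these shares was not tested. Of the markers of other cells, those that reached 10 CPM in a library were 3 of 8 for fibroblasts (COL1A1 at 149 to 245 CPM, COL1A2 at 192 to 333 and THY1 at 110 to 223), KDR of mesoderm (37.7 to 102.5), GABRP of trophoblast and amnion (2.95 to 27.25), and FABP7 (5.48 to 14.02) and MAP2 (2.86 to 10.86) of neural ectoderm. PAX6, TBXT, FOXA2 and TWIST1 were under 1 CPM in every library and at 0 in some. The part of such cells in the results was not tested. The CPM of single markers in this paragraph are without normalisation. The sums that follow are of normalised CPM over the tested members alone, so KDR by itself can exceed the mesoderm sum. These members were 4 of 11 for neural ectoderm, 2 of 9 for mesoderm, 2 of 8 for endoderm, 2 of 7 for trophoblast and amnion and 4 of 8 for fibroblasts. The summed levels of neural ectoderm (22.3 to 35.95 CPM in N-long KD and 17.8 to 31.5 in N-short KD), mesoderm (40.35 to 101 and 38.4 to 94.8), endoderm (0.809 to 3.797 and 1.65 to 3.52), trophoblast and amnion (7.11 to 29.8 and 5.67 to 29.8) and fibroblast lists (534 to 772 and 522 to 748) overlapped between the knockdowns. None of their 14 tested members passed, against 0.0781% of all genes, a share at which 0 of 14 says little. Those with the smallest p were FABP7 (0.35, adjusted p 0.577), KDR (0.093, 0.7998), CER1 (-0.37, 0.891), KRT7 (0.23, 0.906) and THY1 (-0.047, 0.863).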

How the data were processed

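RNA was sequenced by the authors after ribosomal RNA depletion, and each deposited table lists splice junctions with raw counts of the reads crossing them (column 5), without normalization. STAR 2.7.1, SAMtools 1.9 and hg38 are named in the submitters' processing notes. Junctions were annotated with GENCODE 29 (GRCh38), and reads on junctions of 1 gene, 94.4% to 94.76% of each library, were summed per gene. Cassette exons were up to 1000 nt long; inclusion reads were the mean of the 2 inclusion junctions, and of 36208 candidates the 6444 were kept that averaged at least 20 inclusion plus skipping reads over the 8 libraries and whose inclusion in all reads lay between 2% and 98%. A group mean carries the SD over its 4 libraries and a difference the SD over the 4 sets.

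Genes, junctions and exons were compared by the quasi-likelihood F-test of edgeR 4.0.16 (R 4.3.3; filterByExpr for genes and junctions, scaling by TMM) with terms for library set and knockdown; exons had inclusion and skipping reads as columns of each library. The Benjamini-Hochberg adjustment ran over all features of a kind, and 0.05 was the threshold. The sets pair the libraries by time and series: residuals of libraries of one set correlated across genes at 0.611, 0.415, 0.787 and 0.554 and across exons at 0.225, 0.0423, 0.371 and 0.133. The highest correlation with a library of another set was 0.409, 0.112, 0.112 and 0.409 across genes and 0.148, 0.0454, 0.0454 and 0.148 across exons, so across exons 2 of the 4 sets (24 hr replicate 2 and 96 hr) correlated less within than between sets. DESeq2 1.42.0, limma 3.58.1, other filters and designs, and each library left out were alternatives; a robust spread estimate was added after the data were seen. With the set term, leaving out 1 library takes its set out of the contrast. Tests were checked on simulated data. Named were RBFOX2 and its junctions, all genes, exons and splice sites that passed, the next 5 genes in each direction by p, and the list members that passed or had the smallest p. The comparison, its lists and the named features were chosen with earlier results of these data known. Control and total knockdown libraries and the authors' 9 comparison tables (69 columns of per-library values) were not used here.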

Additional observations from a re-analysis of the deposited data

Results flagged for a closer look

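Libraries that stood far from the other 3 of their group (gap to the nearest over the group's range) were found in 12 of 86 groups of 4 looked at. The cut-off flags about 1 in 20 groups of 4 independent, normally distributed replicates. That rate need not hold here, as the libraries of a group differ in time and series and the features were those that passed. Of the 12, 8 were the 48 hr N-short KD library and 2 the 48 hr N-long KD library. The 48 hr N-short KD library had 78.9 CPM for AC104257.1 (next 23.8). Its inclusion was 71.25% for the exon of MSI1 (next 85.2%), 84.7% for ACTN1 (96.2%), 55.9% for the upstream TPM1 exon (78.55%), 27.5% for the downstream one (11.4%), 7.17% for the 27-nt MYH10 form (3.41%), 77.7% for ECT2 (88.7%) and 27.3% for RAPGEF2 (59.0%). The 48 hr N-long KD library had 7.14% for EPB41L1 (next 18.75%) and 61.0% for ECT2 (79.55%). MORC4 stood at 11.1 CPM in the N-short KD library of 24 hr replicate 2 (next 7.98), and the RPL37 junction at 7.92% in the 96 hr N-long KD library (next 0%).

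The difference between the knockdowns differed by time, as tested with a term of its own, in 3 exons. The change in log2 odds ratio from the 24 hr to the later sets was -0.36 for the 22-nt form of the RPS24 exon (adjusted p 5.0e-07) and -0.37 for the 25-nt form (adjusted p 4.2e-04). These forms share reads and are not separate results. The change was -20.3 for the AP2M1 exon, where the value rests on inclusion reads in only 2 libraries and has no meaning as a size.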

How the results depend on the processing

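RBFOX2 kept its direction in all alternatives (log2 fold change -0.55 to -0.47 when 1 library was left out, -0.52 to -0.51 otherwise) and lost its call without the replicate block, that is, without the set term that pairs the libraries (-0.52, adjusted p 0.617), and with a term for time alone (-0.52, adjusted p 0.111). Against 10 genes, 1 passed in DESeq2, 4 with RLE size factors, 0 with no replicate block or with time alone (52 and 131 unadjusted), 2 in a fit of all 14 libraries, 36 with no filter on low counts (26 of them not among the 10), and 1 to 3 when 1 library was left out. Of the 7 RBFOX2 junctions 1 passed with no replicate block and 3 to 5 when 1 library was left out. Exons that passed numbered 0 in limma and 0 with no replicate block (395 and 165 unadjusted), 17 with the lower of the 2 inclusion junctions (16 of them among the 29) and 14 to 27 when 1 library was left out. Splice site junctions numbered 0 in limma and 0 with no replicate block (263 and 131 unadjusted), and 2 to 4 when 1 library was left out. Exons differing by time numbered 0 to 2 when 1 library was left out (221 or more unadjusted). The RPL37 junction ranged from -9.71 to 0.84 when 1 library was left out, turning positive without either library of 24 hr replicate 1; all 29 exons and 10 genes kept their direction in every alternative that tested them. The cause was not tested. Depth limits single exons: APBB2 had 20 to 43 reads per library, and its widest Wilson interval had a half-width of 18.5 points.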
